A study of Rattus norvegicus with 12 samples.

Results

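The measurements here are the RNA levels of control fibro-adipogenic progenitors before and after adipogenic induction: 2 libraries at day 0 and 2 libraries at day 3, chosen by their labels, out of 12 libraries in the series. Fibro-adipogenic progenitors are the stromal cells of skeletal muscle that can become fat cells or matrix-producing fibroblasts. These came from the soleus of rats (Rattus norvegicus) that had spent 0 days in hindlimb suspension, and were grown as primary cultures to a state short of confluence. At day 3 the cells had been moved to a medium with insulin at 1 μM, the synthetic glucocorticoid dexamethasone at 1 μM and, at 0.5 μM, the phosphodiesterase inhibitor IBMX (3-isobutyl-1-methylxanthine); both days share the same basal medium, per the labels' protocols. The other 8 libraries, used below only for comparison, come from rats after 7 or 14 days of hindlimb suspension, in which the hind legs bear no weight, with 2 libraries at each day. Strain, age and sex are not given in the labels used here. The labels also do not say whether the replicates are separate animals or separate cultures. A p-value sets a change against the spread between replicate libraries, estimated over all 12 libraries, and that spread may be technical.

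Insulin, a glucocorticoid and an agent that raises cyclic AMP form the classical mixture by which preadipocytes are induced in culture. In textbook models the glucocorticoid and cyclic AMP act through the early C/EBP factors, these turn on PPARγ and C/EBPα, and the genes of lipid storage follow. No culture was kept to day 3 without the mixture, so the change described below holds the added time in culture as well as the mixture, and these cannot be told apart.

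The count table names genes by Ensembl identifiers only, and 0 of its 32622 identifiers matched the 47357 genes of the RefSeq table used for names. The members of the pathways and the markers of the cell type could therefore not be looked up, the labelled cell type was not checked against its markers, and no promoter sequence could be tied to a gene. The account below describes groups of genes by what they did, and 4 genes by their identifiers.

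The control libraries held 18757578 and 17929398 counts at day 0 and 15105521 and 16684464 at day 3. Of the genes, 17134 had at least 1 read in these 4 libraries, and 13215 were abundant enough to be tested. Replicates correlated at r = 0.990 over genes at day 0 and 0.989 at day 3 (log2 CPM, counts scaled by library size), and the means of the 2 days at 0.929. Among the 9614 genes with at least 100 counts on average, the median difference between replicates was 0.092 on the log2 scale at day 0 and 0.083 at day 3. The median difference between the days was 0.31. The change of a typical gene over 3 days was thus several times the spread between its replicates.

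Induction was accompanied by a change in 6960 genes, or 52.7% of those tested (edgeR quasi-likelihood test, Benjamini-Hochberg FDR of 0.05). Rises and falls were nearly equal in number: 3414 genes rose (25.8%) and 3546 fell (26.8%), around a median log2 change of 0.002 over all genes tested. The scaling by TMM places the bulk of genes near 0, so the even split and the median are in part set by it. Most of the changes were small. The middle 50% of all genes lay between log2 changes of -0.43 and 0.34, and the middle 90% between -1.89 and 1.47. In 10008 genes (75.7%) the libraries of the 2 days did not overlap in CPM. With 2 libraries against 2, a gene without any change does so with a probability of 0.333. The 10008 include 3064 of the 6255 genes that did not pass the test, so the share is not one of changed genes.

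**Figure D1:**
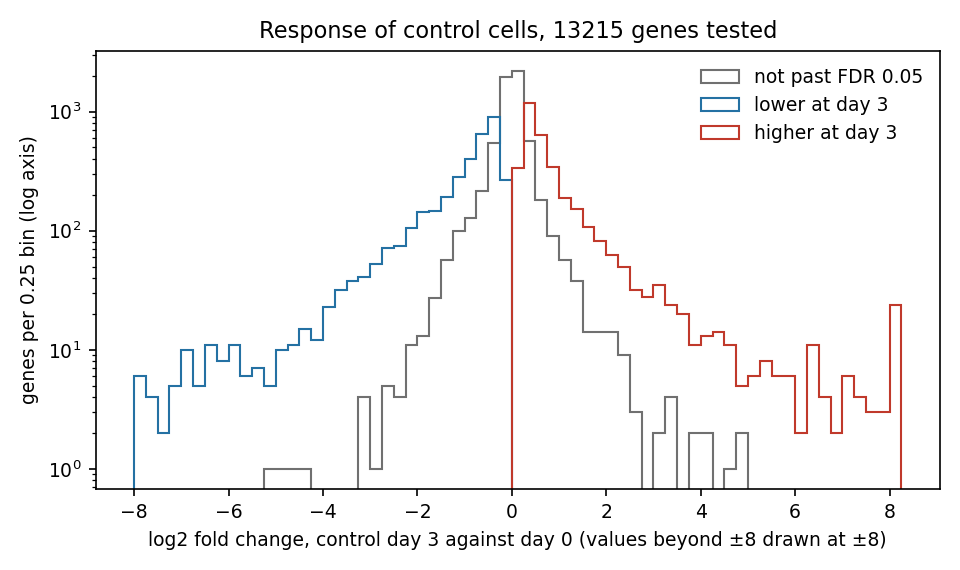
Number of genes (log axis, bins of 0.25) by fitted log2 fold change of control cells from day 0 to day 3; grey, genes that did not pass an FDR of 0.05; blue, 3546 genes that fell; red, 3414 genes that rose. The bulk lies near 0, with tails to both sides; fitted values in the far tails belong largely to genes with 0 reads on 1 day and have no bound.

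The balance between rises and falls depended on the size of the change. Under 1.5-fold, more genes rose (1783) than fell (1420). From 1.5 to 2-fold 710 rose and 795 fell, from 2 to 4-fold 530 and 764, from 4 to 8-fold 173 and 305, and from 8 to 32-fold 133 and 182. Falls were thus the more frequent in each class between 1.5 and 32-fold. At 32-fold or more the numbers were 85 and 80, but 43 of these 85 rises had 0 reads at day 0 and 59 of the 80 falls had 0 reads at day 3, so that their size is a fitted value. In all, 921 genes (6.97%) rose and 1331 (10.1%) fell at least 2-fold. The surplus of falls lay mostly among genes with few reads: below 300 counts on average, each of the 4 classes of abundance held more falls than rises, with between 81 and 190 rises of 2-fold or more and between 121 and 313 falls. Among the 943 genes with at least 3000 counts there were 79 rises and 84 falls of that size.

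**Figure D2:**
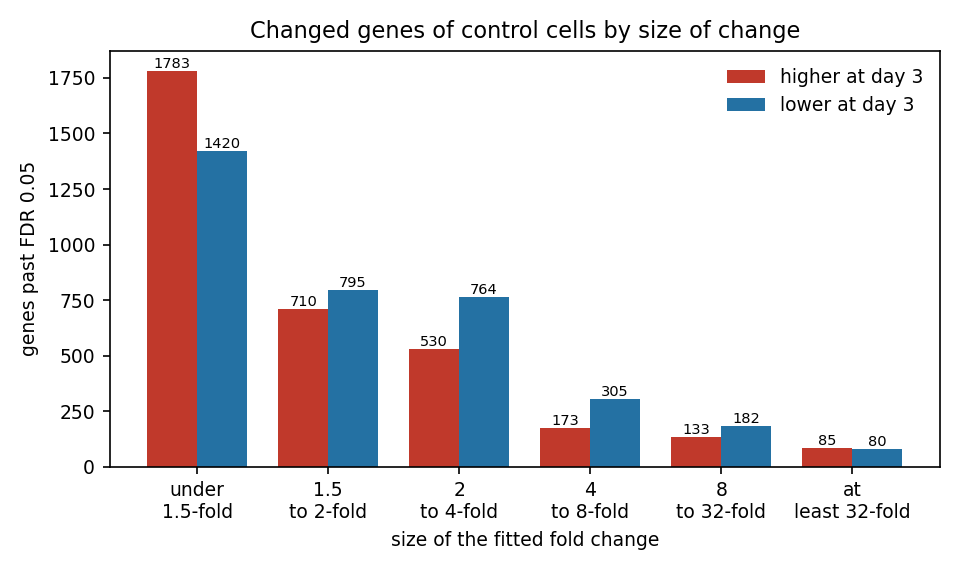
Number of control genes past an FDR of 0.05 by size of the fitted fold change, red for higher and blue for lower at day 3. Falls outnumber rises in each class from 1.5 to 32-fold, rises outnumber falls under 1.5-fold (1783 against 1420).

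How small a change could be seen depended on the depth behind the gene. With 3000 counts or more, the median standard error was 0.056 on the log2 scale, 81.1% of genes passed the threshold, and the smallest change that did was 0.086. With 100 to 300 counts the median standard error was 0.17 and 48.2% of 2401 genes passed. Below 10 counts it was 0.91, 24.2% of 834 genes passed, and no change under 1.75 was called. In that last class 255 further genes had fitted changes of 2-fold or more that the test could not tell from no change. The share of changed genes is therefore a statement about this depth, and a gene of few reads that is not called may still have changed.

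Measured by counts rather than by genes, the redistribution was far larger than that between replicates. Between a day 0 and a day 3 library, 18.6% to 19.2% of the counts were held by different genes (the summed differences in share, divided by 2). Between the replicates of a day this was 2.63% at day 0 and 2.01% at day 3. Of 8728 genes that gained share, 93 made up 50% of the total gain of 18.7%. Of 8406 that lost share, 85 made up 50% of the loss. The 10 largest gains summed to 3.74% of all counts and the 10 largest losses to 5.19%.

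The 1331 genes that fell at least 2-fold took 11.3% and 11.2% of the counts in the day 0 libraries and 3.53% and 3.54% in the day 3 libraries. The 921 genes that rose at least 2-fold took 4.39% and 4.43% at day 0 and 13.6% in each library at day 3. The 6255 genes that did not pass the test held 21.7% ± 0.0087 at day 0 and 22.0% ± 0.013 at day 3 (SD, n = 2), so their summed share moved by little. These groups were chosen on the same 4 libraries, and the shares are a description of them.

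**Figure D3:**
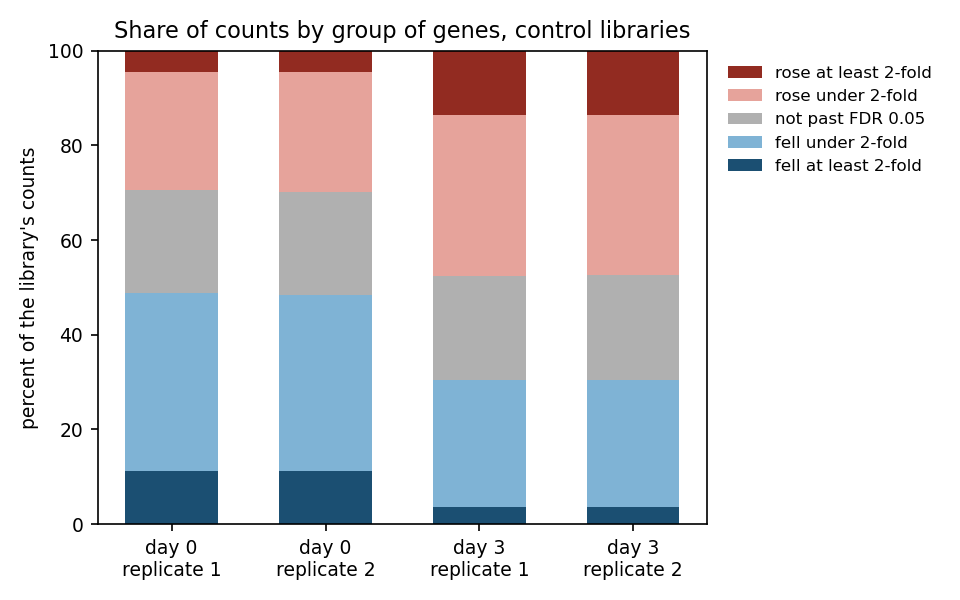
Percent of each control library's counts (vertical axis, 0 to 100) held by genes that fell at least 2-fold, fell under 2-fold, did not pass the test, rose under 2-fold, or rose at least 2-fold. The replicates of a day look alike, and the genes that rose at least 2-fold grow from 4.41% to 13.6% of the counts.

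The gene with the most counts in each of the 4 libraries took 3.21% and 3.07% of them at day 0 and 2.13% and 2.10% at day 3. It fell by 0.58 on the log2 scale (SE 0.04, edgeR adjusted p = 1.40e-14). The gene with the largest gain in share went from 0.662% and 0.644% to 1.38% in each day 3 library, a log2 change of 1.07 (SE 0.04, adjusted p = 1.93e-24). Both genes were chosen after their values had been seen. The 10 most counted genes of each library together took 13.9% and 13.5% of the counts at day 0 and 12.2% and 12.1% at day 3. The libraries of induced control cells were thus slightly less dominated by a few transcripts. This was not so in 14-day cells, where the mean share went from 14.8% to 15.7%. In 7-day cells it went from 12.8% to 12.5%, with libraries that overlapped. With 2 libraries against 2, an exact permutation test of such a share cannot give a two-sided p under 0.333.

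Fewer genes were detected at day 3, with 14947 and 14930 genes against 15161 and 15083 at day 0. The day 3 libraries were also shallower. At the depth of the smallest library, 15105521 counts, the expected numbers were 15038 and 14996 at day 0 and 14947 and 14882 at day 3, which still did not overlap but lay closer together. Reads on both days were found for 14775 genes, on day 0 only for 1249 and on day 3 only for 1110.

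Genes read on 1 day only had few reads in most cases. Of the 1110 found on day 3 only, 33 had at least 20 reads and 9 at least 100, with a maximum of 4225. Of the 1249 found on day 0 only, 46 had at least 20 reads and 1 at least 100, with a maximum of 154. The most counted gene without reads at day 0 thus lay far above the most counted gene without reads at day 3.

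The next counts are for the 10 largest fitted rises and the 10 largest fitted falls of genes with at least 5 CPM on the higher day. Of the 10 rises 8 had 0 reads at day 0 and were at least 91.7-fold higher at day 3 (45.9-fold if both reads of each pair were counted), reckoned against the limit that a count of 0 allows (3 counts over both libraries, 0.0813 CPM). None of the 10 falls reached 0 reads at day 3: 6 kept 1 to 3 reads, and the others up to 26. The limit of 5 CPM had set this in advance. Genes without reads at day 3 had at most 154 reads at day 0, which lies below that limit.

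ENSRNOG00000028616 had 0 reads in both libraries at day 0 and 2084 and 2141 reads at day 3, or 136 and 127 CPM. The rise was at least 1615-fold, or 808-fold if both reads of each pair were counted (edgeR adjusted p = 3.00e-28). ENSRNOG00000011989 also had 0 reads at day 0, and 960 and 1197 reads, or 62.7 and 70.8 CPM, at day 3. It was at least 821-fold higher (adjusted p = 3.52e-25), or 410-fold if both reads of each pair were counted. For both genes the day 3 libraries lay far above day 0 and within a narrow range of each other.

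Both genes also rose in 7-day cells (edgeR adjusted p = 3.95e-15 and 6.94e-11). In 14-day cells the first rose (adjusted p = 3.08e-06) and the second did not pass the test (adjusted p = 0.117). Both were less abundant in induced cells of unloaded rats than in those of control rats. ENSRNOG00000028616 reached 5.06 and 5.94 CPM at day 3 after 7 days of unloading, and 0.677 and 0.640 CPM after 14 days. ENSRNOG00000011989 stood at 2.48 and 2.28 CPM at day 3 after 7 days of unloading and at 0.339 and 0.213 CPM after 14 days, against 62.7 and 70.8 CPM in control cells. At day 0 it had 0 reads after 7 days of unloading and 2 reads in each library after 14 days. Of the 10 largest fitted rises, 9 lay below their control level at day 3 after 7 days of unloading and 9 after 14 days, while 7.43% and 15.3% of all genes did. In each comparison 1 of the 10 lay above it, as did 6.75% and 16% of all genes. The 10 genes, these 2 included, were chosen for a high level in the control libraries that enter this comparison, so the levels and counts are a description. The fitted change has no bound for a gene with 0 reads at day 0, so the ranking favours such genes, here 8 of the 10.

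The exception among the 10 is a gene that was already read at day 0, with 294 reads in the 2 libraries, and that had 131096 reads at day 3. Its level went from 7.98 to 4069 CPM in control cells, a rise of 8.99 on the log2 scale (SE 0.08, edgeR adjusted p = 1.25e-43), and it alone took 0.412% ± 0.0020 of the counts at day 3 (SD, n = 2). At day 3 it stood at 6821 CPM after 7 days of unloading and at 5901 CPM after 14 days. It was singled out after its values had been seen.

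At the other end, ENSRNOG00000003669 went from 142 and 161 reads at day 0, or 7.53 and 8.93 CPM, to 0 and 1 read at day 3 (adjusted p = 5.14e-14, edgeR). The ratio of the levels was 265, with a 95% counting interval (exact binomial) of 47.1 to 10488. ENSRNOG00000055293 went from 200 and 203 reads, or 10.6 and 11.3 CPM, to 0 and 2 reads (adjusted p = 8.50e-16), a ratio of 176 with an interval of 48.4 to 1458. Both intervals are too narrow if both reads of each pair were counted. In both genes the 2 days were far apart, and the wide intervals reflect the 1 and 2 reads left at day 3, all in replicate 2. Without replicate 2 of day 3 both genes have 0 reads at day 3 and fitted log2 changes of -10.20 (ENSRNOG00000003669) and -10.61 (ENSRNOG00000055293), which have no bound; without replicate 1 the changes are -6.96 and -6.45, against -7.76 and -7.31 with both.

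These falls were also seen in cells of unloaded rats. ENSRNOG00000003669 stood at 4.49 and 4.41 CPM at day 0 after 7 days of unloading and at 10.7 and 7.53 CPM after 14 days; its day 3 libraries held 0 reads after 7 days, and 2 and 0 reads after 14 days. ENSRNOG00000055293 stood at 5.82 and 5.53 CPM and at 11.0 and 11.3 CPM at day 0, and had 0 reads in the 4 day 3 libraries of unloaded cells. The difference between the responses of unloaded and control cells did not pass the interaction test for either gene (adjusted p = 0.673 and 0.851 for the first, 0.488 and 0.242 for the second, after 7 and 14 days). With at most 2 reads a library at day 3, such a difference was not detectable at this depth.

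**Figure D4:**
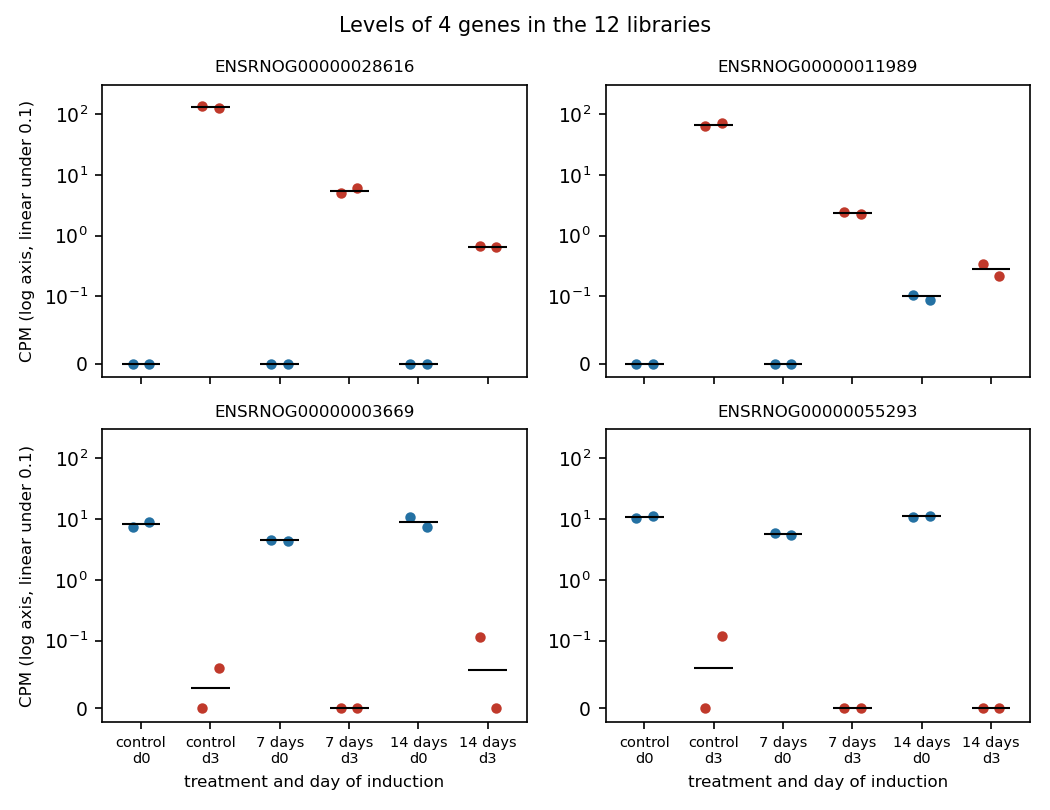
CPM of 4 genes in the 12 libraries (log axis, linear under 0.1; points are libraries, lines the mean of 2; blue, day 0; red, day 3). The upper 2 genes rise from 0 reads in control cells and reach 131 and 66.7 CPM there, but under 6 CPM in unloaded cells; the lower 2 fall to near 0 in all 3 treatments.

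To see how far the control response was met in other cultures, the genes changed in control cells were followed in the libraries of unloaded rats, whose contrast is not that of the control cells, although they shared its filter and estimate of spread. Of the 3414 genes that rose in control cells, 2389 (70.0%) rose in 7-day cells and 2300 (67.4%) in 14-day cells, where 24.8% and 27.7% of all genes rose. Of the 3546 that fell, 2666 (75.2%) and 2571 (72.5%) fell, where 26.9% and 28.1% of all genes did. Changes in the opposite direction were found for 83 and 177 of the rises and for 36 and 122 of the falls. With the control genes chosen in a fit of the 4 control libraries and followed in a separate fit of the 8 others, a check chosen after seeing the data, these shares were 67.9% and 66.3% of the rises and 74.2% and 71.7% of the falls. The control response was thus largely met in cells of unloaded rats.

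Among larger changes with enough reads, falls and rises gave different counts. A group of 88 genes fell at least 8-fold from a level of at least 5 CPM (0.666% of the genes tested). All 88 fell in 7-day cells and all 88 in 14-day cells, where 26.9% and 28.1% of all genes fell. The median gene of the 88 stood at 17.8 CPM in both control libraries at day 0 and at 1.27 and 1.39 CPM at day 3. In 7-day cells it went from 15.6 and 14.2 CPM to 1.29 and 1.41 CPM, and in 14-day cells from 15.7 and 16.6 CPM to 1.27 and 1.33 CPM. The day 3 libraries of the 3 treatments overlapped in this level.

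The matching group held 120 genes that rose at least 8-fold, to at least 5 CPM (0.908%). Of these, 112 rose in 7-day cells and 95 in 14-day cells, where 24.8% and 27.7% of all genes rose. The median gene of the 120 went from 1.30 and 1.16 CPM to 30.8 CPM in each control library. After 7 days of unloading it reached 16.8 and 16.5 CPM at day 3, and after 14 days 13.9 and 13.5 CPM. The day 3 libraries of the 3 treatments did not overlap in this level, which was the highest in the control cells that had served to choose the genes. At day 0 the median gene stood at 1.39 and 1.49 CPM after 7 days and at 0.897 and 1.04 CPM after 14 days. The counts of rises and falls are not on equal terms. With both sets chosen in the control libraries alone, 8 of 120 rises did not pass the filter of the unloaded libraries, while all 88 falls did. Such rises were kept for their reads in control cells.

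The difference in response was tested gene by gene in both groups. Of the 120 rises, the response was less positive than in control cells for 44 genes in 7-day cells and for 58 in 14-day cells, and more positive for 10 and 21. Of the 88 falls, it was less negative for 17 and 14 genes and more negative for 4 and 14. Over all genes tested, the response was more positive than in control cells for 4.7% of genes in 7-day cells and 11% in 14-day cells, and more negative for 5.68% and 10.9%. Both groups were chosen on the control libraries, which favours weaker responses elsewhere, and the difference between the groups was not itself tested.

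At a limit of 32-fold the groups were 43 genes that rose (0.325%) and 12 that fell (0.0908%), again with at least 5 CPM on the higher day. All 12 falls were met in 7-day and in 14-day cells, where 26.9% and 28.1% of all genes fell. Of the 43 rises, 40 were met in 7-day cells and 28 in 14-day cells, where 24.8% and 27.7% of all genes rose. Both groups were chosen on the control libraries, and the difference between them was not tested. As with the 8-fold groups, these counts are not on equal terms, since a rise could be kept for its reads in control cells alone. A gene of the 43 had 0 reads in each library of 14-day cells, where no rise could be called. Each of the 12 falls had a mean of at least 1.32 CPM in 7-day and 1.24 CPM in 14-day cells at day 0. The median log2 change of the 43 was 6.65 in control, 4.69 in 7-day and 3.14 in 14-day cells, and that of the 12 was -6.05, -5.15 and -5.31, with genes at 0 reads set to the limit of 3 counts a group. Without that limit the fitted medians of the 43 were 6.85, 6.20 and 3.86, and those of the 12 were -6.05, -5.68 and -5.73.

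The summed share of the 43 genes in control cells was 0.00599% ± 0.000060 before induction and 1.05% ± 0.00045 at day 3 (SD, n = 2). After 7 days of unloading they took 0.848% ± 0.032 at day 3, and after 14 days 0.714% ± 0.017. Much of this sum is the single gene with 131096 reads. The median member of the 43 shows a wider gap, at 25.3 and 26.8 CPM in control cells at day 3, 7.27 and 7.98 CPM after 7 days and 1.58 and 1.39 CPM after 14 days.

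**Figure D5:**
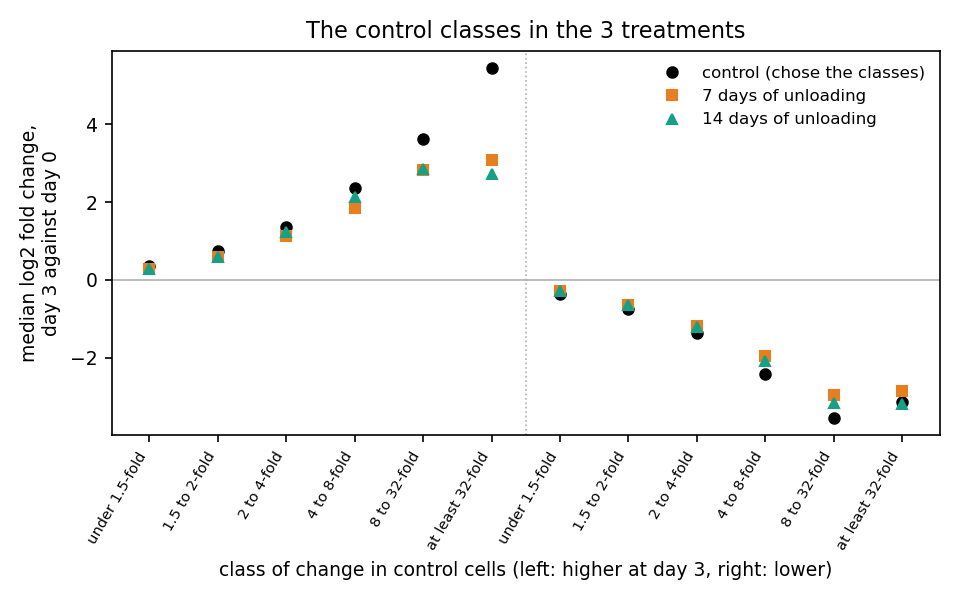
Median log2 fold change from day 0 to day 3 (vertical axis) of the genes in each class of change of control cells, in control (black), 7-day (orange) and 14-day (green) cells; genes with 0 reads in a group are set to the limit of 3 counts. All classes were chosen on the control cells, which favours medians nearer to 0 in unloaded cells. Such medians are seen in each class under 32-fold. The gap is widest among rises of at least 32-fold (5.45 against 3.09 and 2.72). Among falls of at least 32-fold the medians are -3.13 in control, -2.86 in 7-day and -3.18 in 14-day cells. There 59 of 80 genes have 0 reads in control cells at day 3, so the limit sets these values.

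Taken over genes that were not chosen by their change, the 3 responses were of like size. Among the 9673 genes with at least 100 counts on average over the 12 libraries, the standard deviation of the log2 changes was 0.87 in control cells, 0.81 in 7-day cells and 0.89 in 14-day cells, and the median change regardless of sign was 0.31, 0.30 and 0.34. Rises and falls of at least 8-fold numbered 218 and 262 in control cells (1.65% and 1.98% of genes), 173 and 209 in 7-day cells (1.31% and 1.58%) and 217 and 268 in 14-day cells (1.64% and 2.03%). Falls of that size outnumbered rises in each treatment. No test of these differences was made, since genes are not independent and each response rests on 4 libraries.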

How the data were processed

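The deposited table holds raw counts per gene, read as the authors deposited them. Per the submitters' processing notes the tools were STAR 2.7, featureCounts 1.6.4, FastQC 0.11.9 and DESeq2, and the build was Rnor_6.0. Not given in the sources used here are their roles, the annotation release, the strand setting and the handling of read pairs. Reads of genes that overlap or have near-identical copies may be shared. Between 68.7% and 70.1% of control counts from 1 to 20 were even numbers, so halved counts were tried. Libraries were stranded (TruSeq), with 51 bp reads, per the labels.

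Genes were kept by filterByExpr and scaled by TMM in edgeR 4.0.16 (R 4.3.3). A quasi-likelihood fit of 6 group means to the 12 libraries (6 residual degrees of freedom) gave two-sided tests, adjusted over 13215 genes at an FDR of 0.05. It was tested on data simulated from its own model with few changed genes. That does not check the model itself, or the scaling where many genes change. A standard error is the log2 change divided by the root of the F statistic. CPM are on TMM-scaled libraries. Log2 CPM for replicates used a prior count of 2. Replicates differed by more than the counting noise of independent reads (chi-square per degree of freedom 4.17 at day 0, 2.69 at day 3). Counting both reads of a pair would also raise this value. Limits and intervals cover counting error only.

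Without symbols, the 31 gene lists, their counts and the promoter motifs were not used. Named genes are the first 2 of the largest fitted rises and of the falls, among genes past the FDR with days that do not overlap and at least 5 CPM; the groups by fold were chosen after seeing the data. All choices were made with earlier results of these data known. Alternatives were DESeq2 (1.42.0), other scalings and filters, the 4 control libraries alone, halved counts, a replicate block, leaving out each control library and, added after seeing the data, separate fits of control and unloaded libraries.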

Additional observations from a re-analysis of the deposited data

Results flagged for a closer look

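In edgeR's test of the interaction (FDR 0.05) the change from day 0 to day 3 was not the same as in control cells for 1371 genes of 7-day cells and for 2900 genes of 14-day cells; both comparisons share the control libraries. The genes below were chosen by their values in those libraries, which bears on the size of each difference and on its adjusted p. These values are therefore a description and not independent support.

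Of the genes described above, the gene with the largest gain in share rose more in unloaded than in control cells, by a log2 difference of 0.34 after 7 days (SE 0.05, adjusted p = 6.65e-06) and of 0.66 after 14 days (SE 0.05, adjusted p = 8.57e-13). The most counted gene fell in control cells and did not pass the test of a change in 14-day cells (log2 change 0.02, adjusted p = 0.776), and its responses differed by 0.60 (SE 0.06, adjusted p = 4.79e-10). The gene with 131096 reads rose less in unloaded cells, by -0.71 (SE 0.10, adjusted p = 4.31e-06) and -1.02 (SE 0.10, adjusted p = 4.98e-10), from a day 0 level of 21.9 and 23.5 CPM against 7.98 in control cells. For ENSRNOG00000011989 the fitted difference after 14 days was -11.82 (adjusted p = 3.20e-06), a value with no bound, since control cells had 0 reads at day 0; after 7 days both day 0 groups had 0 reads and no ratio could be tested.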

How the results depend on the processing

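The 5 counts of changed control genes stayed within 1.5 times their values under the 8 alternatives and with each control library left out, as did the 2 counts of differing responses under the 7 that could be run for them (1250 to 1461 genes for 7-day cells, 2520 to 2946 for 14-day cells) and without each control library (996 to 1124, 2144 to 2668), and the 4 named genes kept their direction and their side of the threshold in each. The total of 6960 changed genes ranged from 6451 (DESeq2) to 7060 (4 control libraries only), and from 5888 to 6031 with 1 control library left out, where the lone library is assumed to vary like the other groups. Genes higher at least 2-fold ranged from 851 to 933 over the 8 alternatives and from 853 to 897 with 1 library left out, and genes lower at least 2-fold from 1226 to 1330 and from 1214 to 1258. No gene called in both changed sign in any of these. Scaling to the total count moved the median gene by 0.0116 on the log2 scale, and made the rises 50.4% of all called genes, where TMM gave 49.1%. With a replicate block 6856 genes passed, 6833 of them shared with the 6960; the differences between replicates 1 and 2 correlated at -0.011 between the days in control cells, so the numbers are not taken to pair the libraries. Fitting the control and the unloaded libraries apart, a check chosen after seeing the data, left 88 of 88 falls of at least 8-fold from at least 5 CPM met in 7-day and in 14-day cells, and 106 and 93 of 120 matching rises, 8 of which were not tested in the unloaded libraries. The alternatives for gene lists were not run, for want of symbols. Depth limits most the genes below 10 counts and the size of changes from or to 0 reads.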
